A study of Mus musculus with 2 samples.

Results

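The genes for the subunits of the transcription factor NF-κB and for their IκB inhibitors were compared between PDLIM2-knockdown and control mouse lung carcinoma cells. A list of 10 genes was taken by symbol from the annotation of the array, and 9 of the 10 were measured among 19505 genes in all: the subunit genes Rela, Relb, Rel and Nfkb2, the classical IκB genes Nfkbia, Nfkbib and Nfkbie, and the atypical, nuclear IκB genes Nfkbiz and Bcl3. The tenth, a further subunit gene, was not analysed here. RNA came from Lewis lung carcinoma (LLC) cells of C57BL/6 origin. The knockdown line expressed a hairpin RNA directed at PDLIM2 (shPDLIM2), and the control line an empty hairpin vector (shEmpty). Both lines were made by lentiviral infection with polybrene and kept as stable lines under puromycin. The sources do not say whether either line was a clone or a pool. Each line was hybridized to 1 Affymetrix Clariom S mouse array, so that there are no replicates and no test between the lines. That number of arrays is what limits the precision here. The RNA is bulk RNA, in which fewer cells with a transcript and less transcript per cell cannot be told apart.

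NF-κB is a dimer of proteins that share a Rel homology domain. In resting cells the classical IκB proteins cover the dimers with ankyrin repeats and hold them in the cytoplasm. The IκB kinase (IKK) marks IκB for ubiquitination and degradation, after which the dimers enter the nucleus and switch on inflammatory and survival genes. Nfkbia, Nfkb2, Relb, Bcl3 and other genes of the family are themselves known targets of NF-κB, which closes feedback loops. PDLIM2 is known as a nuclear ubiquitin ligase that ends the response by marking the RelA protein for degradation, a step that acts on protein. The arrays measured mRNA only, and neither RelA protein nor its location in the cell was measured on them. Apart from the arrays, the study measured phosphorylation of the RelA protein by flow cytometry. It reported higher NF-κB activity in the knockdown LLC cells than in control cells.

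The knocked-down gene, Pdlim2, was 3.27-fold lower, with log2 signals of 8.33 in shPDLIM2 cells and 10.04 in shEmpty cells. Signal without transcript was read from 1463 chemosensory receptor genes (odorant, vomeronasal, taste and trace amine receptors). Their 95th percentile, used as the background level, was 5.26 in shPDLIM2 and 5.12 in shEmpty cells. The central 95% of their log2 differences ran from -0.79 to 1.01, and the median difference of all genes was 0.01. Among genes with exactly 2 probe sets, 48 in number, the spread of a single probe set's difference was 0.35 on the log2 scale. These ranges come from the same 2 arrays and do not replace the missing replicates. They cover neither differences between repeated hybridizations nor differences between cultures. As to the labelled cell type, Vim and Fn1 were above background on both arrays, as were the keratins Krt8 and Krt18, whereas Epcam and Cdh1, which define epithelium, were not above background on either. Of 7 mesenchymal markers, 4 were above background on at least 1 array (Vim, Fn1, Col3a1 and, in shPDLIM2 cells alone, Pdgfrb), Col1a1, Col1a2 and Thy1 were not, and the summed linear signal was 762795 in shPDLIM2 and 811994 in shEmpty cells. Of 7 epithelial markers, 3 were above background on at least 1 array, and the summed linear signal of the 7 was 2676 in shPDLIM2 and 4963 in shEmpty cells. Most of this sum came from Krt18, with log2 signals of 11.29 in shPDLIM2 and 12.20 in shEmpty cells. Most of the mesenchymal sum likewise came from Vim, at 19.46 and 19.56 in shPDLIM2 and shEmpty cells. Sftpb, Sftpa1, Scgb1a1 and Nkx2-1 of lung epithelium were also not above background, and Sftpc was above it by 0.07 in shPDLIM2 and 0.01 in shEmpty cells. Of 10 leukocyte markers measured, 9 were not above background on either array, among them the pan-leukocyte gene Ptprc. Adgre1 was above it in shPDLIM2 cells alone, and the summed linear signal of the 10 was 226 in shPDLIM2 and 190 in shEmpty cells. Of 4 endothelial markers, Pecam1 alone was above background, in shPDLIM2 cells, with Cdh5, Kdr and Tek not above it, and their sum was 92 in shPDLIM2 and 70 in shEmpty cells. The part of these markers in the results on NF-κB genes was not tested.

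Of the 9 genes, 8 had a lower signal in shPDLIM2 than in shEmpty cells, beside 49.0% of all genes. Relb was the 1 gene with a higher signal, beside 50.0% of all genes, and its signals were at background. The median log2 difference, shPDLIM2 minus shEmpty, was -0.23 over the 9 genes. Only the 2 atypical IκB genes, Bcl3 and Nfkbiz, were at least 1.5-fold lower, beside 10.0% of all genes. None of the 9 was at least 1.5-fold higher, beside 9.78% of all genes. The 7 genes above background on both arrays were all lower, with a median of -0.29. Among all genes above background on both arrays 54.6% were lower, with a median of -0.06, and 13.5% were at least 1.5-fold lower, beside 2 of these 7. None of the 9 differences was outside the central 95% of those of the 500 genes nearest in mean signal. Only those of Bcl3 and Nfkbiz exceeded the probe set spread of 0.35. Among all genes, 56.5% had a difference smaller in size than 0.35 and the rest reached it, so that passing it is common. With 1 array per line and a single hairpin, PDLIM2 loss cannot be told apart from effects of the culture, the line or the hairpin on other genes.

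**Figure D1:**
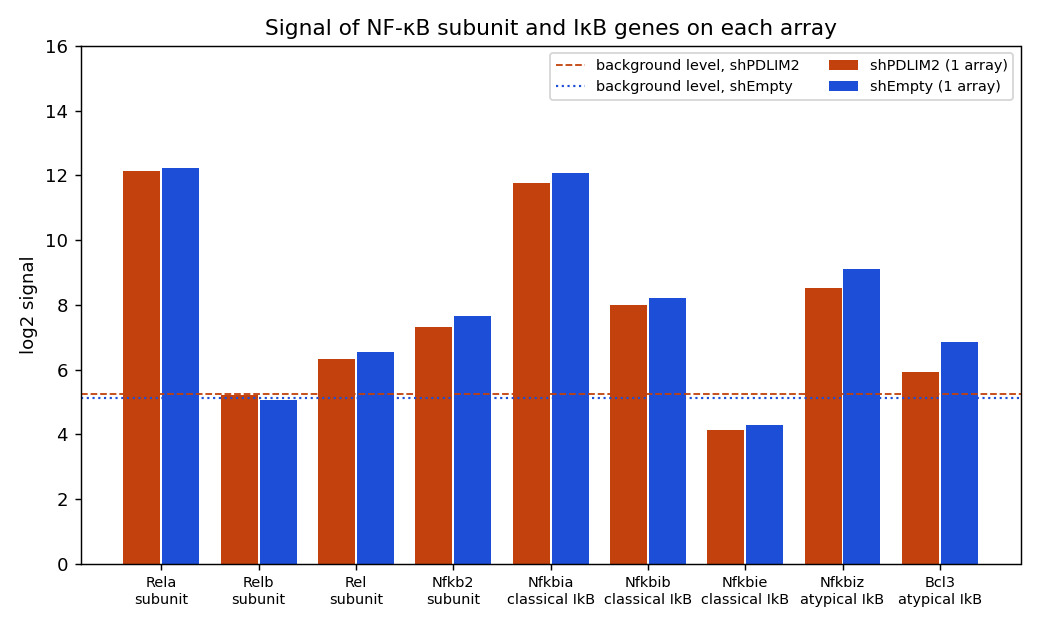
Log2 signal (vertical axis) of the 9 measured genes on the shPDLIM2 array and the shEmpty array, 1 bar per array without error bars, with the background level of each array as a dashed or dotted line. Relb and Nfkbie do not reach the lines on either array. Bcl3 has the widest step, with 5.94 in shPDLIM2 and 6.85 in shEmpty cells.

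Among the subunits, Rela differed least. Rela, whose product carries a strong activation domain and is the protein that PDLIM2 marks for degradation, had a log2 signal of 12.14 in shPDLIM2 cells and 12.22 in shEmpty cells. The difference of -0.08 is 1.06-fold lower, and 13.8% of all genes had a smaller absolute difference. Its direction depended on how the arrays were scaled, at 0.02 after quantile normalization and -0.01 after removal of a trend with signal. The mRNA of Rela was therefore at nearly the same signal on both arrays.

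Rel, which encodes c-Rel, best known from lymphocytes, had signals of 6.32 in shPDLIM2 and 6.55 in shEmpty cells, a difference of -0.23 or 1.17-fold lower. Nfkb2, the precursor of the subunit that partners RelB in the noncanonical pathway, had signals of 7.32 and 7.66 in shPDLIM2 and shEmpty cells. Its difference of -0.34, or 1.27-fold lower, was the largest among the subunits and just below the probe set spread. Relb, the noncanonical partner, had signals of 5.20 in shPDLIM2 and 5.05 in shEmpty cells. Both lay below the background level, by 0.06 and 0.07, so that no fold is given for it. The median of the 4 subunit genes was -0.155, and it was -0.07 after quantile normalization.

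The 3 classical IκB genes were all lower, each by less than the probe set spread. Nfkbia, which encodes IκBα, the fast feedback inhibitor, had signals of 11.77 in shPDLIM2 and 12.06 in shEmpty cells, a difference of -0.29 or 1.22-fold lower. Nfkbib, which encodes IκBβ, had signals of 8.00 in shPDLIM2 and 8.22 in shEmpty cells, a difference of -0.22 or 1.16-fold lower. Nfkbie, which encodes IκBε, had signals of 4.12 and 4.29 in shPDLIM2 and shEmpty cells, neither above background, so that no fold is given for its difference of -0.17. The inhibitor mRNAs thus did not have higher signals in the knockdown line, and the median of the 3 genes was -0.22. Under the other scalings of the arrays Nfkbia stayed between -0.30 and -0.18 and Nfkbib between -0.23 and -0.12.

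The atypical IκB genes had the largest differences of the family. Bcl3, a nuclear ankyrin repeat protein that binds NF-κB dimers on DNA and can act as a coactivator, had signals of 5.94 in shPDLIM2 and 6.85 in shEmpty cells. The difference of -0.91, or 1.88-fold lower, was larger in size than that of 94.5% of all genes and of 92.6% of the 500 genes nearest in signal. The central 95% of those neighbours ran from -1.06 to 0.82, so that Bcl3 was near the lower end of the range but inside it. Its signal exceeded the background level by 0.68 in shPDLIM2 and 1.73 in shEmpty cells. Nfkbiz, which encodes IκBζ, an inducible nuclear cofactor for secondary response genes, had signals of 8.51 in shPDLIM2 and 9.10 in shEmpty cells. Its difference of -0.59 is 1.51-fold lower and passed the limit of 1.5-fold by less than the 0.01 step of the deposited values. It was -0.51 after quantile normalization or removal of the trend, short of that limit, while Bcl3 ran from -0.92 to -0.85 over the scalings. Of the genes within the limit, Nfkb2 at -0.34 came nearest to it.

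**Figure D2:**
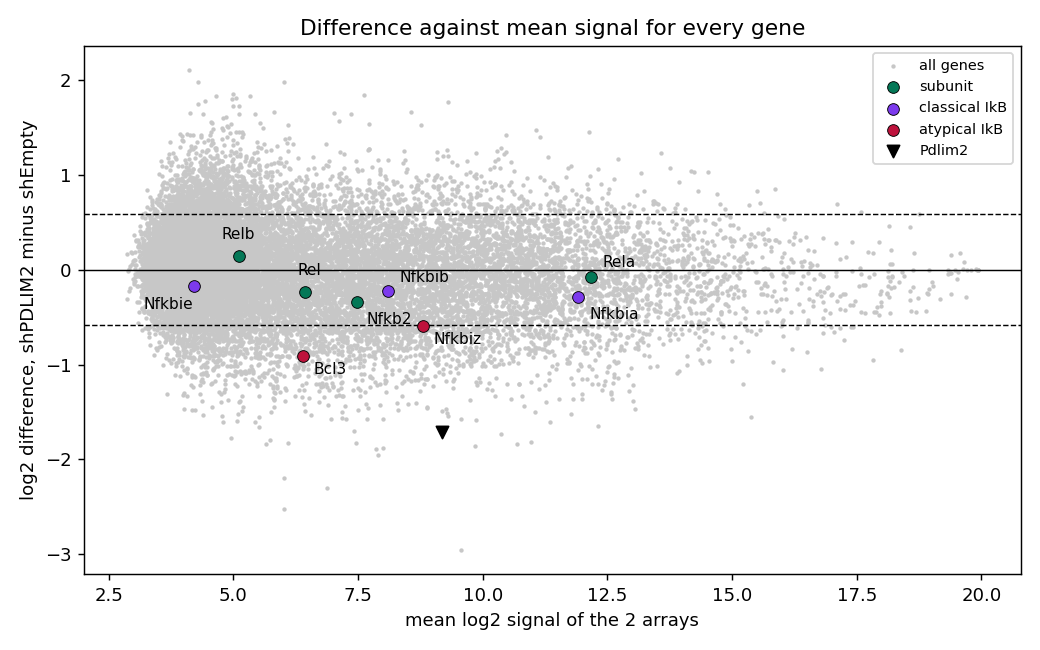
Log2 difference, shPDLIM2 minus shEmpty (vertical axis), against the mean log2 signal of the 2 arrays (horizontal axis) for 19505 genes in grey, with the subunit, classical IκB and atypical IκB genes in colour and Pdlim2 as a triangle; dashed lines mark 1.5-fold. Bcl3 at -0.91 and Nfkbiz at -0.59 are lowest among the family and lie within the grey cloud, while Pdlim2 at -1.71 lies below most of it.

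The promoters of the family are shown because κB sites near their start sites are what ties several of these genes to NF-κB itself. Sequences came from RefSeq (GRCm38.p6), as windows of 250 bases before and 50 after an annotated start, and 7 of the 9 genes had a window. Relb and Nfkbiz had none in the table used. Each window was searched on both strands for the 10-base κB consensus and for GGNNTTTCC, which overlap where a site meets both. The consensus was present in 8.46% of 32851 windows of all genes, GGNNTTTCC in 5.82%, and either in 12.8%. By gene, 14.4% of 27025 genes had a match in at least 1 window. Of the 7 genes here, 5 had a match: Bcl3, Nfkb2, Nfkbia, Nfkbie and Rel. Rela and Nfkbib had no match, which says only that these letters are not in these windows. The windows of the 7 genes had a GC content of 56.3% to 75.0%, against a median of 52.7% over all windows, and the consensus is itself rich in G and C.

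The matched stretches are given in capitals, read 5′ to 3′ on the strand of the gene, with positions counted from the annotated start. For Nfkbia and the upstream match of Bcl3 the bases outside the gene are shown. Of Nfkb2, only the matches in its first window are printed. These, the second match of Bcl3 inside the gene, and the matches of Nfkbie and Rel are given with their flanks:
Bcl3, chr7:19822825-19823005, minus strand, positions -250 to -70: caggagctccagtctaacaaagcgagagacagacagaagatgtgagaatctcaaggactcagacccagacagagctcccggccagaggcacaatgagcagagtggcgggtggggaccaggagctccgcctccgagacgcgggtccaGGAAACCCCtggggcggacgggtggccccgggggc
Bcl3, chr7:19822734-19822763, minus strand, positions -8 to 22: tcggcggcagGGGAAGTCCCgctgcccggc
Nfkb2, chr19:46304689-46304718, plus strand, positions -48 to -19: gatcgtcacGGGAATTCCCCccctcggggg
Nfkb2, chr19:46304716-46304745, plus strand, positions -21 to 9: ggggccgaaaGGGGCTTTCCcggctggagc
Nfkbia, chr12:55492648-55492897, minus strand, positions -250 to -1: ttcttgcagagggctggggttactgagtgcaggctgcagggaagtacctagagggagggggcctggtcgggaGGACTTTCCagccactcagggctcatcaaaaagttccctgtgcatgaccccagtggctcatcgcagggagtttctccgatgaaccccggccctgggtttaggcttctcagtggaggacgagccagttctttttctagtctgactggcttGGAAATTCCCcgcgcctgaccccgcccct
Nfkbie, chr17:45555584-45555613, plus strand, positions -116 to -87: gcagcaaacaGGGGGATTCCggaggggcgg
Rel, chr11:23771041-23771070, minus strand, positions -101 to -72: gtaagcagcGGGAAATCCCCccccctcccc

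Nfkbia carried 2 matched stretches, the nearer ending 20 bases before the start. Nfkb2 had 3 windows, all inside the RefSeq bounds of the gene. The first held 2 matched stretches close to its start and the second another 2, and the single stretch of the third was the downstream stretch of the second seen again, because these windows overlap. Rel and Nfkbie had 1 stretch each. The 5 genes with a match had log2 differences of -0.91 for Bcl3, -0.34 for Nfkb2, -0.29 for Nfkbia, -0.23 for Rel and -0.17 for Nfkbie. The 2 genes without one had -0.22 for Nfkbib and -0.08 for Rela. The ranges of the 2 sets overlap, and with 7 genes this is a description only. A match is not evidence that NF-κB was bound there in these cells.

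**Figure D3:**
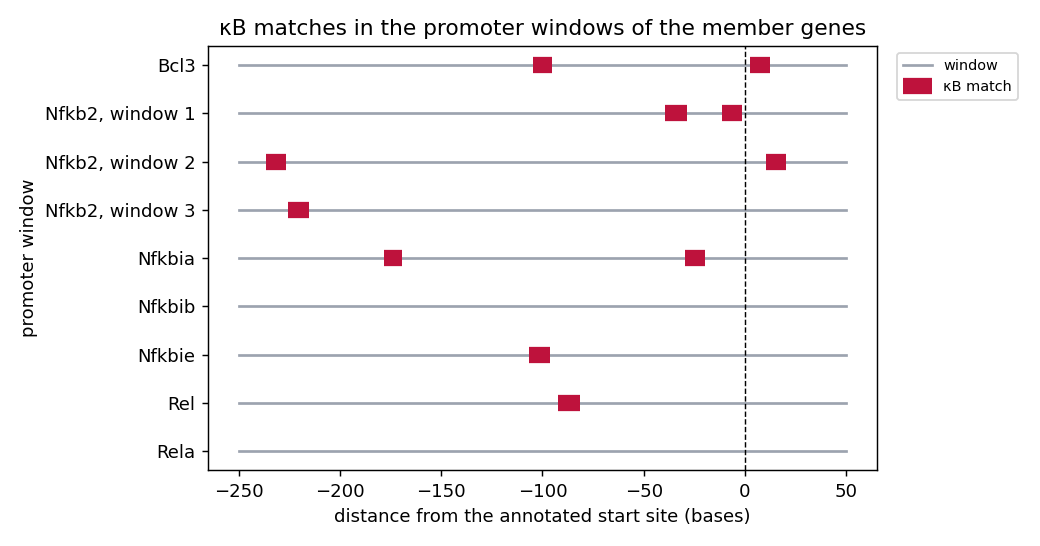
Position of the matched κB stretches (red) in the 9 promoter windows of 7 genes, as distance in bases from the annotated start site (horizontal axis, dashed line at the start). Matches lie within 40 bases before the start in the first window of Nfkb2 and in Nfkbia, and there are none in Rela and Nfkbib.

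Upstream of IκB, genes of the IKK complex and its activators had a median of -0.225 in shPDLIM2 against shEmpty cells. The counts of this and the following lists stand beside the 49.0% of all genes that were lower and the median of 0.01 over all genes. Where a list is limited to genes above background on at least 1 array, the matching values over all such genes are 54.9% lower, 14.5% at least 1.5-fold lower and a median of -0.06. Of 22 measured genes, 14 were lower against 8 higher, and 3 were at least 1.5-fold lower, a share of 13.6% beside 10.0% of all genes, or 16.7% beside 14.5% with only genes above background. Ikbkb, the IKK subunit that phosphorylates IκB in the canonical pathway, had signals of 6.35 in shPDLIM2 and 7.14 in shEmpty cells (-0.79, 1.73-fold lower). Rnf31, the catalytic subunit of the linear ubiquitin ligase LUBAC, had signals of 5.36 in shPDLIM2 and 6.20 in shEmpty cells (-0.84, 1.79-fold lower), the knockdown signal being 0.10 above the background level. Of its partners in LUBAC, Rbck1 was at -0.53. Sharpin, named after its value was seen, was at -0.29, less than the probe set spread. Tradd, the adaptor of the TNF receptor, was 1.56-fold lower. Ikbkg, the regulatory subunit of IKK that was likewise named after its value was seen, differed by -0.24.

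Of 8 IKK-related kinase and noncanonical genes, 5 were higher and 3 lower, with a median of 0.265. Ikbke, which encodes the inducible kinase IKKε, had signals of 7.94 in shPDLIM2 and 7.22 in shEmpty cells (0.72, 1.65-fold higher). Ltbr, a receptor of the noncanonical arm, was at 0.47, Tbk1, the partner kinase of IKKε, at 0.32 and the TWEAK receptor Tnfrsf12a at 0.28. The lower genes, named after their values were seen, were Map3k14, the kinase of the noncanonical arm, at -0.19, the adaptor Tank at -0.12, and Cd40 at -0.73, which was not above background on either array. Among 10 genes for the ubiquitination of IκB, the split was 6 lower to 4 higher (median -0.12). Cul1, the cullin scaffold, was 1.66-fold higher with signals of 10.08 in shPDLIM2 and 9.35 in shEmpty cells. Btrc, an F-box protein that recognizes phosphorylated IκB, differed by -0.41, the ubiquitin-conjugating enzyme Ube2d1 by -0.47 and the RING subunit Rbx1 by -0.28. Fbxw11, the other F-box protein of this list, was named after its value was seen. It had higher signals than Btrc, 12.24 in shPDLIM2 and 12.18 in shEmpty cells, and differed by 0.06.

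Among cofactors and further IκB-like genes, 9 of 13 were higher and 4 lower, with a median of 0.20. Nkiras1, a Ras-like protein that binds IκB and slows its loss, had signals of 7.84 in shPDLIM2 and 6.62 in shEmpty cells (1.22, 2.33-fold higher), and its relative Nkiras2 was at 0.43. Nkap, named as an NF-κB activating protein, had signals of 6.38 in shPDLIM2 and 7.62 in shEmpty cells (-1.24, 2.36-fold lower). Crebbp, an acetyltransferase that serves as a coactivator of RelA, was 1.39-fold higher. Nfkbid, another atypical IκB gene named after its value was seen, had signals of 3.93 in shPDLIM2 and 4.15 in shEmpty cells, below background on both arrays.

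The brakes on NF-κB signalling were divided, with 9 of 17 higher and 8 lower. Their median was 0.05, and -0.11 without the 3 genes not above background on either array, beside -0.06 over all genes so limited. Zc3h12a, an RNase that cuts inflammatory mRNAs, had signals of 8.33 in shPDLIM2 and 7.24 in shEmpty cells (2.13-fold higher), and Rnf11 was 1.58-fold higher. Otulin, the deubiquitinase that trims linear chains, was above background in shEmpty cells alone, with signals of 5.22 in shPDLIM2 and 6.34 in shEmpty cells. With the background level taken for its shPDLIM2 signal, it was at least 2.12-fold lower. Tnip1, a partner of the ubiquitin-editing enzyme A20, was 1.68-fold lower. Tnfaip3, which encodes A20 and was named after its value was seen, had signals of 7.64 in shPDLIM2 and 8.20 in shEmpty cells (-0.56, 1.47-fold lower). Like Nfkbia, it is a feedback gene of NF-κB. A gene picked after its value was seen does not stand for feedback genes as a set. The brakes went both ways, with Zc3h12a higher.

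Of 16 receptors that feed the pathway, 10 were above 0 and 6 below, but only 6 were above background on at least 1 array, and among these 4 were lower, beside 54.9% of all such genes. The median was 0.06 over the 16 and -0.115 over the 6, beside 0.01 and -0.06 over all genes. Il1r1, the IL-1 receptor, had signals of 11.75 in shPDLIM2 and 11.36 in shEmpty cells (0.39), and Tlr4, the receptor for lipopolysaccharide, 11.96 and 12.18 in shPDLIM2 and shEmpty cells (-0.22). Tlr2 was above background in shEmpty cells alone. With the background level taken for its shPDLIM2 signal, it was 1.09-fold lower, with no allowance for noise. Its difference of -0.29 was smaller than the probe set spread. Ifngr1 was 1.91-fold higher, although it signals chiefly through JAK and STAT.

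**Figure D4:**
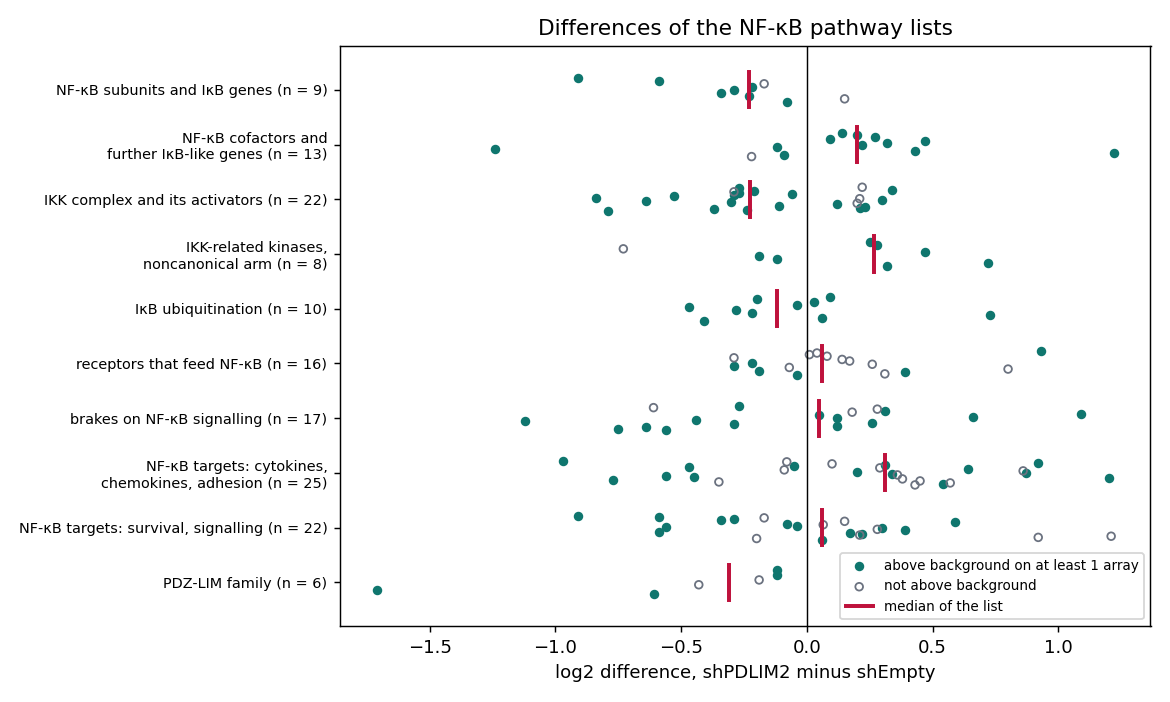
Log2 difference, shPDLIM2 minus shEmpty (horizontal axis), of each measured gene in the family and in 9 lists of pathway genes, 1 row per list, filled where the gene was above background on at least 1 array and open where it was not; the red bar is the median. The family and the IKK list have medians below -0.2, as does the PDZ-LIM family with Pdlim2 included (-0.19 without it), while cytokine targets and the noncanonical list have medians above 0.2.

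Known targets of NF-κB went both ways. Of 25 genes for cytokines, chemokines, adhesion and related factors, 16 had a higher and 9 a lower signal (median 0.31). Of these, 14 were above background on at least 1 array, 8 of them higher and 6 lower, with a median of 0.255. Over all genes so limited, 44.2% were higher, with a median of -0.06. Among the chemosensory receptor genes, read as signal without transcript, 56.8% were higher in shPDLIM2 cells, with a median of 0.08. Cxcl5, a neutrophil chemokine, had signals of 9.80 in shPDLIM2 and 8.60 in shEmpty cells (2.30-fold higher), Lcn2, a siderophore-binding protein, was 1.89-fold higher and the chemokine Ccl20 1.83-fold higher. Plau, the urokinase gene, had signals of 12.23 in shPDLIM2 and 13.20 in shEmpty cells (1.96-fold lower). Lcn2 and Ccl20 are among the genes that IκBζ is known to help switch on, while the signal of Nfkbiz was lower. No list of IκBζ targets was examined, and a link between these values was not tested.

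The inflammatory genes Il1b, Mmp9 and Tnf are singled out because RT-qPCR was used on them in these lines. The study assessed them because less PDLIM2 was already known to raise inflammatory genes, and it reported them as upregulated in shPDLIM2 LLC cells. That choice is therefore not independent of their direction. Il1b had signals of 6.20 in shPDLIM2 and 5.66 in shEmpty cells, a difference of 0.54 or 1.45-fold higher. Mmp9 had signals of 4.71 in shPDLIM2 and 4.14 in shEmpty cells and Tnf 3.48 and 3.05 in shPDLIM2 and shEmpty cells. The signals of Mmp9 and Tnf were not above background on either array, so that no fold is given for their differences of 0.57 and 0.43.

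Of 22 survival and signalling targets, 12 had a higher and 10 a lower signal, and the median was 0.06. Over the 14 above background it was -0.06, the same as over all genes so limited. These 14 include Nfkb2, Nfkbia, Nfkbiz and Bcl3 of the family, all lower. The full list holds 6 members of the family, all lower except Relb. Without those 6, 11 of 16 were higher, with a median of 0.19. Only 10 of the 16 were above background, and no median was taken over those 10. Outside the family, Myc, the growth-promoting transcription factor, had signals of 19.04 in shPDLIM2 and 18.45 in shEmpty cells (1.51-fold higher), and Ier3, an immediate early survival gene, 15.68 and 16.27 in shPDLIM2 and shEmpty cells (1.51-fold lower). Within the PDZ-LIM family, all 6 measured genes were lower, Pdlim2 included, and 4 of the 6 were above background on at least 1 array. Without Pdlim2, which was knocked down by design, the median of the other 5 was -0.19, and -0.31 with it. Next to Pdlim2, Pdlim1, which has been described to hold RelA in the cytoplasm, had signals of 15.99 in shPDLIM2 and 16.60 in shEmpty cells (-0.61, 1.53-fold lower), and Pdlim5 and Ldb3 were both at -0.12.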

How the data were processed

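The deposited tables hold a log2 signal for every probe set of the Affymetrix Clariom S array, to 2 decimals. RMA and the Transcriptome Analysis Console are listed in the processing notes of the submitters. Versions, genome build and whether the arrays were normalized to each other were not given in the sources used here. Of 22206 probe sets, 19572 had 1 gene symbol and 2634 none. Probe sets of 1 gene were averaged; each member had 1 probe set. No p-value was computed, because there is 1 array per line. Background on each array was the 95th percentile of the chemosensory receptor genes.

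The members and the 9 pathway lists were chosen with earlier results of these data known. Named genes are all members, Pdlim2, the 3 RT-qPCR targets and up to 4 genes per list with the largest absolute difference among those above background. Sharpin, Ikbkg, Nfkbid, Tnfaip3, Map3k14, Tank, Cd40 and Fbxw11 fall outside this rule and were named after their values were seen. Some listed symbols had no match and were not analysed here. A planned comparison of protein sequences was not run. Alternatives were median centring, quantile normalization, removal of a lowess trend (fraction 0.3), the 99th percentile as background, a fold of 2, the brightest probe set and a filter on genes not above background. The scalings were tested on simulated data. Python 3.11.15, numpy 2.4.6, pandas 2.3.3, statsmodels 0.14.6 and matplotlib 3.10.9 were used.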

Additional observations from a re-analysis of the deposited data

How the results depend on the processing

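Over the scalings of the arrays, 8 of the 9 genes kept the direction they had as deposited, and Rela did not, at 0.02 after quantile normalization, which made 2 genes higher in shPDLIM2 cells. The count of genes at least 1.5-fold lower was 1 after quantile normalization and 1 once the lowess trend was removed, since Nfkbiz was then at -0.51, and 0 with a fold of 2. The median of the 9 genes ran from -0.24 to -0.18 and the difference of Pdlim2 kept its direction. With the 99th percentile as background, the same number of genes, 7, were above it. Of 85 differences and medians recomputed, 4 had the other sign. These were Rela, as above, and the medians of receptors, brakes and survival targets with only genes above background, a limit that also moved the median of all genes to -0.06, against 0.01 without it. Leaving Pdlim2 out of the PDZ-LIM list, chosen after seeing the data, gave a median of -0.19. The counts that moved by over 1.5 times and are not given above are counts of higher genes in lists limited to those above background, which hold fewer genes. No paired analysis was possible because each line has 1 array. The signals of Relb and Nfkbie, below background on both arrays, limit what can be said of them.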
